A study of Mus musculus with 42 samples.

Results

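Proliferating C2C12 myoblasts were compared at 4 h of recovery from arsenite with untreated myoblasts, at the level of whole genes and of single 3′UTR isoforms. The comparison was chosen by its sample labels and uses 3 of the 42 libraries of the series: 1 library of cells washed after 1 h in 250 µM sodium arsenite and returned to normal medium for 4 h (RC4), and 2 libraries of untreated cells, labelled 0 h (NT0h) and 4 h (NT4h). The library made at the end of the 1 h treatment (AS) and the matching libraries of differentiated C2C12 cells (myotubes) are given only for comparison. C2C12 is an established mouse muscle precursor line, for which the labels give the strain C57BL/6, an entry that was not checked here. No line carries a transgene, a knockout or a knockdown, so no targeted gene can check the labels. The RNA of all these libraries is labelled cytoplasmic, and 3′READS counts reads that end at a poly(A) site (PAS), each of which marks the 3′ end of an mRNA.

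Arsenite binds protein thiols and misfolds proteins, and cells answer with several known programmes of transcription. HSF1 induces chaperones that refold proteins, NRF2 induces enzymes of glutathione and haem metabolism, MTF1 induces metallothioneins, and ATF4 is translated when eIF2α is phosphorylated and induces genes of amino acid supply. A separate layer is alternative polyadenylation (APA): many genes hold a proximal PAS (pPAS) and a distal PAS (dPAS) in the 3′UTR, and the stretch between them, the alternative 3′UTR (aUTR), is present only in the longer isoform.

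The 2 untreated libraries held 1649925 and 1725942 PAS reads, the AS library 2560185 and the RC4 library 2171653. Between 82.25% and 86.0% of these reads lay in PASs assigned to genes (last exon, or up to 4000 nt past it), and 3.44% to 6.75% were mitochondrial. A PAS with fewer than 5 reads in a library is not listed in its file, so a gene given as 0 may have had a few reads. Of 18 myotube markers 17 were tested and 15 of these, Myog and Ckm among them, were at 0 in the RC4 library. The summed level of the myotube list, nearly all of it Acta1, was 179 and 243 normalized RPM (PAS reads relative to the scaled size of the library) in the untreated libraries, 288 in AS and 359 in RC4, and its part in the results was not tested. Of 10 myoblast markers 8 were tested, with Myod1 present in every library and a summed level of 480 to 488 in the untreated and 491 in the RC4 library. The sum hides members that moved apart: 4 were above both untreated values and 3 below both. Myf5 went from 32.7 and 30.0 to 0. Of 8 fibroblast markers only Pdgfrb and Twist2 were tested, with a sum of 123 to 134 untreated and 59.5 in RC4. Of 9 immune and endothelial markers, Cd14 and Cd68 were tested, with a sum of 6.81 to 11.1 untreated and 16.1 in RC4. In bulk RNA, fewer cells of a type and less RNA per cell cannot be told apart. The study lists the untreated libraries as replicates, nothing says whether they came from separate cultures, and the lone RC4 library has no replicate of its own. The p-values of edgeR and DESeq2 therefore assume that it varied like the untreated pairs of myoblasts and myotubes. Fisher's exact test, used for isoforms, takes in no spread between libraries.

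At 4 h of recovery 142 of 9229 tested genes had risen (1.54%) and 67 had fallen (0.726%) at an adjusted p under 0.05 in edgeR's quasi-likelihood test. Chaperones, haem oxygenase, the metallothionein Mt1 and ATF4 targets were among the genes that rose. Cell cycle regulators, the transcription factor Klf2 and the myogenic factor Myf5 were among the genes that fell. The median log2 difference was 2.24 for the genes that rose and -3.1 for those that fell, or -2.45 with the 28 genes at 0 in RC4 set to a bound of 4 reads. The smallest called differences were 1.09 and 1.42 in size. Of the 142 genes 60 (42.3%) were on at least 1 of the 24 lists used here, as were 6 of the 67 that fell (8.96%) and 6.12% of all tested genes.

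The spread between the untreated libraries sets the scale for these values. It may also hold an effect of the time between the 0 h and 4 h labels, which was not tested. NT4h carries the same 4 h label as RC4. The SD of the log2 difference over all tested genes was 0.96 for NT4h against NT0h, 1.24 for RC4 against NT0h and 1.33 for RC4 against NT4h. Among the 2521 genes with over 200 reads in the untreated libraries it was 0.45, 0.67 and 0.75. Differences over 2-fold in these deep genes numbered 71 between the untreated libraries, 263 for RC4 against NT0h and 364 for RC4 against NT4h. The RC4 value was above both untreated values for 36.0% of all tested genes and below both for 33.3%. Each of the 209 called genes lay outside both untreated values.

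**Figure D1:**
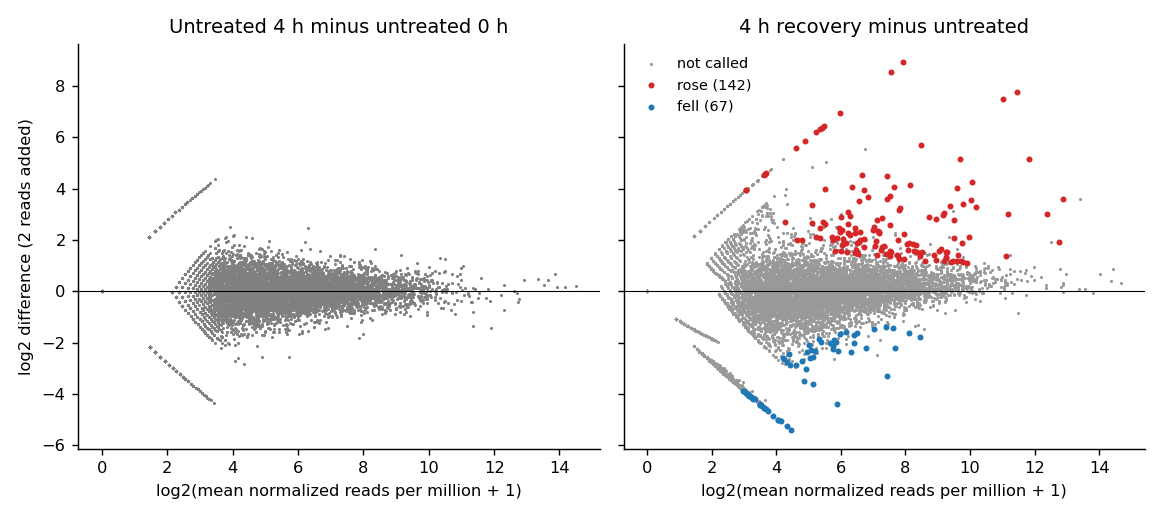
Each point is 1 of 9229 tested genes, with its mean level on the x axis (log2 of normalized RPM + 1) and a log2 difference on the y axis (2 reads added per library). The left panel plots untreated 4 h minus untreated 0 h, and the right panel plots 4 h recovery minus the untreated mean, with the 142 genes that rose in red and the 67 that fell in blue; the diagonal lines of points are genes at 0 in 1 of the groups.

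The counts depend on the scaling and on both untreated libraries. The normalized RPM of the tested genes summed to 947000 and 977000 in the untreated libraries and to 1250000 in RC4, and scaling by library totals instead moved the median gene by -0.34 on the log2 scale, with 73 genes that rose and 141 that fell. Without NT0h 1084 genes rose and 935 fell, and without NT4h 592 rose and 577 fell, since the spread then came from the myotube pair alone. Of the 66 list genes called, 18 were not called with library totals and 4 not with TMM (Atf4, Hspa5, Nupr1 and Psmd8). Among the 18 were also Btg2, Chordc1, Csrnp1, Ddit4, Eif4ebp1, Gabarapl1, Gclm, Hsp90ab1, Hspa9, Prdx6, Sars, Serpinh1 and Zfand5. DESeq2 called 116 of the 142 genes that rose and 33 of the 67 that fell. Among those it did not call were Ccne1, Cdc25a, Hes1 and Pmaip1, and, outside the lists, Etaa1, Exoc8, Mettl13 and Serpina9.

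Chaperones were the list with the most genes that rose. Of 32 listed heat shock chaperones 31 were tested, 16 rose and none fell at an adjusted p under 0.05, 29 were above both untreated values, and the median log2 difference was 1.74 against 0.00 over all genes. Levels below are normalized RPM in the order NT0h, NT4h, AS and RC4. Hspa1b, an inducible HSP70, stood at 32.7, 18.4, 1305 and 5556. The RC4 level lay far above both untreated ones and above the AS level, a 217-fold rise over the untreated mean (log2 difference 7.76 ± 0.51 SE, adjusted p = 0.00277). Its near-identical copy Hspa1a was at 0, 0, 92.6 and 488, at least 175-fold higher in RC4, and reads of the 2 copies may be divided between them with error. Hspa1b was thus low and Hspa1a unlisted in untreated cells, and both were present at the end of the treatment. The testis-type HSP70 Hspa1l was at 0, 0, 5.19 and 46.9, at least 16.8-fold higher. Hsph1, an HSP110 that exchanges nucleotides on HSP70, also rose, but its last-exon PASs held few of its reads and none in untreated cells. Counted over the whole gene span it had 356, 261, 1461 and 9544 reads, a log2 difference of 4.96 (adjusted p = 0.00126). Of 9214 genes counted both ways, 177 had over 2 times as many reads in the span.

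Among the co-chaperones, Dnajb1, an HSP40 that drives the HSP70 cycle, stood at 216, 172, 2376 and 6995 (log2 difference 5.17, adjusted p = 0.00119). Hspb1, a small heat shock protein, stood at 108, 101, 412 and 2045 (4.29, adjusted p = 0.00119). Bag3, which couples small heat shock proteins to HSP70 and autophagy, stood at 85.6, 87.9, 263 and 1447 (4.06, adjusted p = 0.00119). In each of the 3 the RC4 library was the highest and the AS library second. The mitochondrial co-chaperonin Hspe1 was abundant without stress, at 3152 and 2655, and stood at 3117 in AS and 10900 in RC4 (1.91, adjusted p = 0.0171), so its AS level lay within the untreated ones. The others that rose were Dnaja4, Dnaja1, Cryab, Hspb8, Dnajb4, Chordc1, Hsp90ab1 and Hspa9. Hspa8 (7.66, 21.8, 196 and 113) and Hsp90aa1 (16.7, 21.8, 28.6 and 64.4) did not pass (adjusted p = 0.10 and 0.0619). The stress sensor Hsf1 had 25.1, 37.5, 29.4 and 23.1, a difference of -0.44 that did not pass (adjusted p = 0.587).

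Promoters of the chaperones were searched for the heat shock element (GAA, TTC and GAA with 2 bases of any kind between them) on both strands, from 250 bases before to 50 after the RefSeq start (GRCm38.p6). It was found in 5 of 25 listed chaperones with a promoter (20.0%) and in 40 of 6674 promoters of tested genes (0.6%). Among chaperones that rose it was in 3 of 13 (23.08%). Of all genes with a promoter it was in 3 of 108 that rose (2.78%) and 1 of 48 that fell (2.08%). The sequences of these 3 chaperones that rose are shown, 30 bases each with the match in capitals, so that the letters can be read. Hspe1 lies on chr1:55088051-55088080 (plus strand), Hsph1 on chr5:149636279-149636308 (minus strand) and Chordc1 on chr9:18292255-18292284 (plus strand).
Hspe1 promoter: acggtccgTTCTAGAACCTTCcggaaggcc
Hsph1 promoter: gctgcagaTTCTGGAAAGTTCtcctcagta
Chordc1 promoter: tgcaaccgGAACGTTCGGGAAaattcctga
The match began 89 bases before the start in Hspe1, 4 before it in Chordc1 and 15 or 36 bases after it in Hsph1, which has 2 annotated starts. A match is a description of the letters and not of binding.

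Genes of oxidative and metal defence followed. Hmox1, which degrades haem, stood at 18.1, 26.6, 408 and 4112, a 184-fold rise (7.52 ± 0.31 SE, adjusted p = 0.00119) in which both treated libraries lay far above the untreated ones. Srxn1, which reduces overoxidized peroxiredoxins, stood at 133, 123, 122 and 1008 (7.87-fold, 2.98 ± 0.22, adjusted p = 0.00487). Osgin1 was at 11.8, 5.45, 43.3 and 151 (4.12 ± 0.45, adjusted p = 0.0187). Hmox1 and Osgin1 were thus above both untreated levels in AS as well, and Srxn1 was high in RC4 alone. Of 29 listed NRF2 targets 27 were tested, 7 rose and none fell, with a median of 0.95. Txnrd1, Gclm, Prdx6 and Sqstm1 were the other 4, whereas Nqo1, with 33.4, 66.8, 54.9 and 38.5, lay between the untreated values (adjusted p = 0.746). NRF2's own gene Nfe2l2 had 22.3, 23.2, 18.6 and 39.2 (0.79, adjusted p = 0.206). Bach1, a repressor of NRF2 targets, rose from 18.1 and 21.8 to 110, with 19 in AS (2.46 ± 0.28, adjusted p = 0.0218).

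The metallothionein Mt1, a zinc and thiol buffer, stood at 1261, 1078, 3924 and 14044 (12.0-fold, 3.59 ± 0.53, adjusted p = 0.0399). Mt2 reached 19806 from 1295 and 2072, with 4890 in AS, and did not pass (adjusted p = 0.0777), nor did the zinc exporter Slc30a1 (22.3, 16.3, 59.7 and 124, adjusted p = 0.0777). In the 3 genes the RC4 library was nonetheless the highest of the 4 myoblast libraries. Of the 4 tested members of this list 1 rose, and the median was 3.12. The antioxidant response element (TGAC and GCA with 3 bases of any kind between them) was found in 2 of 22 NRF2 target promoters (9.09%) against 3.19% of all promoters. It was also in 2 of 25 chaperone promoters (8.0%). The metal response element TGCGCNC is short and was found in 31.85% of all promoters and in 3 of the 5 metal response genes.

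Of 29 listed ATF4 and integrated stress response genes 27 were tested, 14 rose and none fell, with a median of 1.49, and 23 were above both untreated values. Atf3, a stress-induced repressor, stood at 15.3, 10.2, 938 and 706 (55.3-fold, 5.79 ± 0.27, adjusted p = 0.00119). Gdf15, a secreted stress signal, stood at 34.1, 57.2, 152 and 1592 (34.9-fold, 5.12 ± 0.32, adjusted p = 0.00246). Trib3, a pseudokinase that dampens ATF4 signalling, stood at 9.74, 5.45, 15.1 and 190 (25.0-fold, 4.63 ± 0.49, adjusted p = 0.0171). Atf3 was therefore a gene whose AS level exceeded its RC4 level, while Gdf15 and Trib3 were highest in RC4. Ppp1r15a, which directs dephosphorylation of eIF2α, rose from 12.5 and 19.8 to 213 (13.2-fold, 3.71 ± 0.33, adjusted p = 0.00845), with 40.7 in AS. Atf4 itself had 594, 635, 993 and 1309 (1.09 ± 0.19, adjusted p = 0.0493), the smallest rise that passed on this list. Ddit3, Sesn2, Chac1, Slc3a2, Cebpb, Sars, Eif4ebp1, Ddit4 and Nupr1 made up the rest.

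TGATGCAA, the core of the amino acid response element, was found in 5 of 26 promoters of this list (19.23%) and in 51 of 6674 (0.76%). Among members that rose it was in 3 of 13 (23.08%). Of all genes with a promoter it was in 5 of 108 that rose (4.63%) and 0 of 48 that fell. The matches of the 3 members that rose are shown for the same reason as above, on chr1:191183422-191183451 (Atf3, minus strand), chr2:119351041-119351070 (Chac1, plus strand) and chr7:126625559-126625588 (Nupr1, minus strand) of GRCm38.p6.
Atf3 promoter: tctcgcacTTGCATCAccaagtccgcggtc
Chac1 promoter: ccctgccgTTGCATCActcctgccaggtct
Nupr1 promoter: gggccagaTTGCATCAgacagggcttggag
The capitals are the element read on the opposite strand in each of the 3. Their matches began 110, 193 and 110 bases before the start. Chac1, an enzyme that cleaves glutathione, was at 12.5, 22.5, 110 and 137 (2.96, adjusted p = 0.0348), and the stress protein gene Nupr1 was at 122, 109, 139 and 312 (1.43, adjusted p = 0.0493).

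Of 18 tested endoplasmic reticulum chaperones 1 rose, Hspa5 (452, 418, 641 and 991, 1.19 ± 0.21, adjusted p = 0.0493), with a list median of -0.05. Serpinh1, a collagen chaperone of that compartment, rose from 267 and 253 to 828 (1.67 ± 0.22, adjusted p = 0.0348).

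Genes of protein clearance were also among those that rose. Zfand2a, an arsenite-inducible proteasome partner, stood at 14.6, 30.7, 60.1 and 377 (4.05 ± 0.39, adjusted p = 0.0127). Sqstm1, an autophagy receptor, stood at 141, 240, 273 and 1265 (2.73 ± 0.32, adjusted p = 0.025). The RC4 level of both was the highest of the 4 libraries. Ubb, a polyubiquitin gene, rose from 45.9 and 24.5 to 239 (2.76 ± 0.36, adjusted p = 0.0341), and Gabarapl1 and Zfand5 rose as well. In all, 6 of 19 tested members rose, with a list median of 0.66. Among 30 tested proteasome subunits 1 rose, Psmd8 (507, 433, 503 and 1060, 1.17 ± 0.21, adjusted p = 0.0493). None of the 30 was below both untreated values, 23 were above both, and the median was 0.55.

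**Figure D2:**
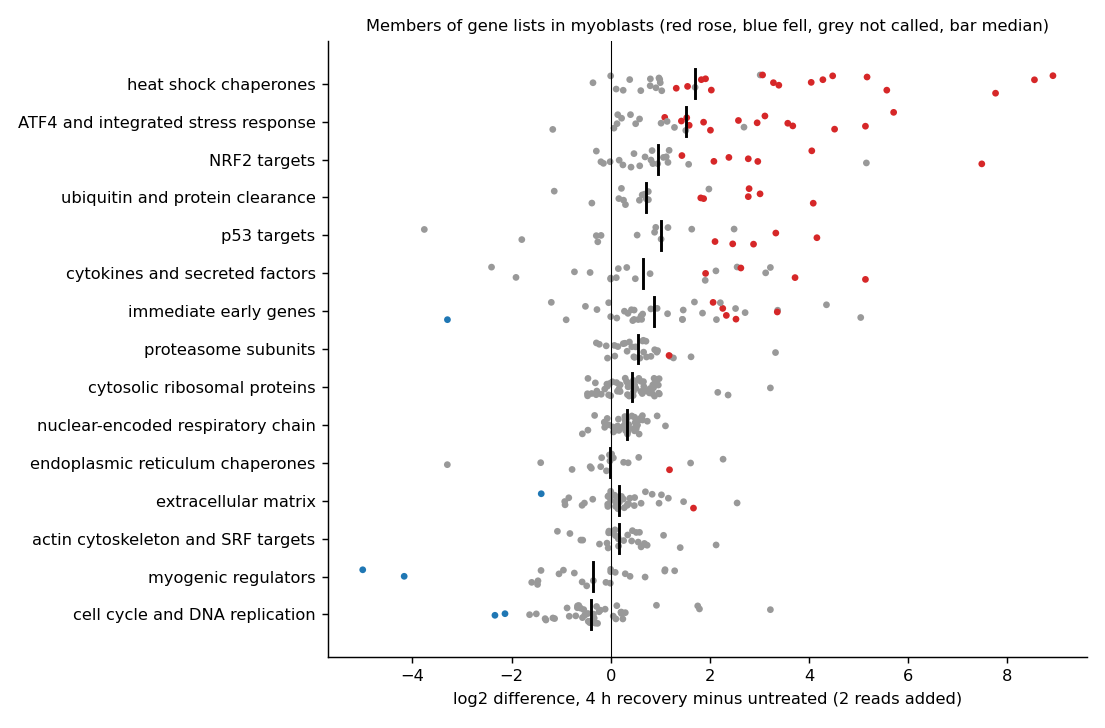
Each point is a tested gene of 1 of 15 lists, placed by its log2 difference between 4 h recovery and the untreated mean (2 reads added), in red where it rose, blue where it fell and grey where it was not called. Bars are list medians: among the 15 lists shown, which leave out the 4 metal response genes, those of heat shock chaperones and ATF4 targets lie farthest to the right and those of the cell cycle and myogenic lists farthest to the left. For untreated 4 h minus untreated 0 h, the medians of the cell cycle and myogenic lists were -0.16 and 0.39.

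Growth arrest genes of the p53 list were also among those that rose. Gadd45a, a p53 target in growth arrest, stood at 37.6, 21.8, 104 and 529 (17.8-fold, 4.15 ± 0.31, adjusted p = 0.00525). Mdm2, the ubiquitin ligase for p53, stood at 157, 88.6, 166 and 1197 (9.74-fold, 3.28 ± 0.33, adjusted p = 0.0152). Plk2, a stress-induced kinase, stood at 113, 90.6, 334 and 751 (2.88 ± 0.23, adjusted p = 0.00591). In all 3 the RC4 level was the highest of the 4 libraries. Pmaip1, a pro-apoptotic BH3 protein, rose (13.2, 10.2, 13.0 and 68.6, 2.54 ± 0.35, adjusted p = 0.0348), and the cyclin kinase inhibitor Cdkn1a rose from 357 and 398 to 1626 (2.11, adjusted p = 0.00845). That made 5 of 17 tested p53 targets, and none fell.

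Of 38 tested immediate early genes 5 rose and 1 fell. Fos, an AP-1 subunit, stood at 5.57, 4.77, 155 and 62.3 (12.1-fold, 3.58 ± 0.32, adjusted p = 0.00845). Zfp36, which speeds decay of AU-rich mRNAs, stood at 36.9, 37.5, 273 and 219 (2.56 ± 0.27, adjusted p = 0.0171). Both had their highest level in AS and a lower one in RC4 that still exceeded the untreated levels. The MAP kinase phosphatase Dusp4 rose from 29.2 and 32.0 to 158 (2.37 ± 0.26, adjusted p = 0.0187), with 48.0 in AS. Btg2, an activator of deadenylation, rose from 18.8 and 24.5 to 93.1 (2.10 ± 0.33, adjusted p = 0.0444), with 118 in AS, and Csrnp1 was the fifth. Klf2 went the other way, with 285, 339, 387 and 30.8 (-3.34 ± 0.39, adjusted p = 0.0226), so its AS level was the highest and its RC4 level the lowest. Of 20 tested secreted factors 4 rose, among them Gdf15, Areg (17.4, 34.7, 42.4 and 337, 3.69 ± 0.38, adjusted p = 0.0157) and Vegfa (13.2, 10.2, 52.3 and 77.0, adjusted p = 0.0218).

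**Figure D3:**
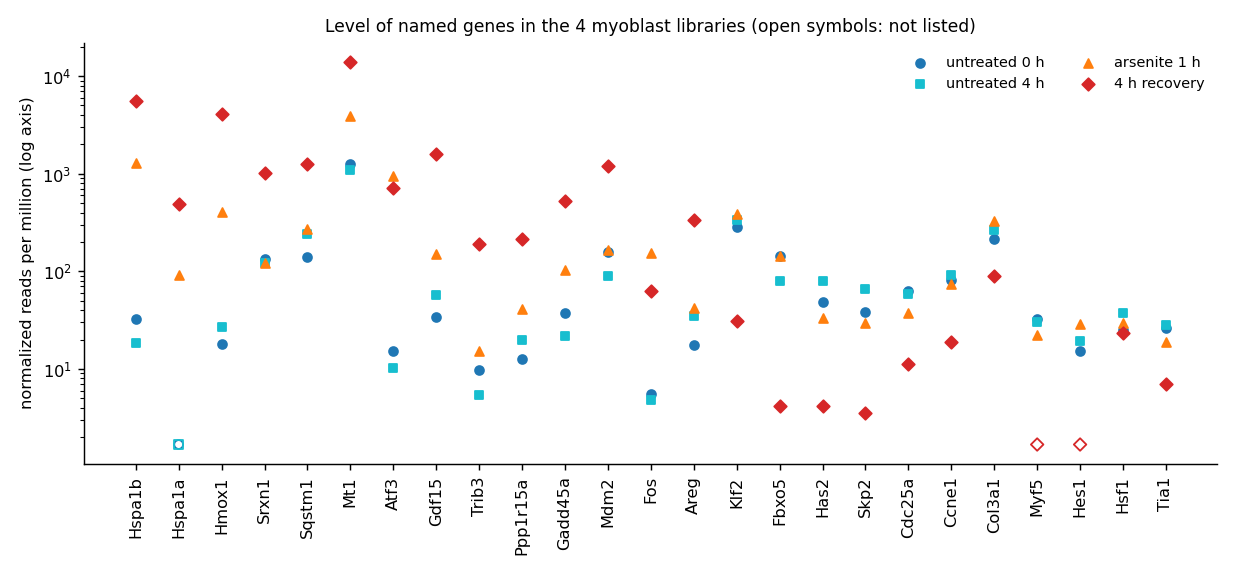
Normalized RPM (log axis) of named genes in the untreated 0 h (circles), untreated 4 h (squares), arsenite 1 h (triangles) and 4 h recovery (diamonds) library, 1 library each. Open symbols stand for genes not listed in a library; the recovery diamond is the highest symbol for most stress genes, lies under the arsenite triangle for Atf3 and Fos, and is the lowest or open for the genes from Klf2 to Hes1.

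Ranked by the fitted difference, which has no fixed size for genes at 0 without stress, the 10 genes taken from the top were Hspa1a, Hsph1, Hspa1l, Hspa1b and 6 genes outside the lists. Their bounds are no order of size. The measured 184-fold rise of Hmox1 exceeds the bounds of the 6, whose own rises could not be measured and may be larger. Krt16, a keratin of stressed epithelium, was at 0 in both untreated libraries and at 4.33 in AS and 124 in RC4, at least 44.5-fold higher. Serpina9, a serpin, was at 0 in the other 3 libraries and at 86.8 in RC4, at least 31.2-fold higher. Bcl2l11, the pro-apoptotic protein BIM, was at 0, 0, 6.49 and 82.6 (at least 29.7-fold). These 3, and Procr (at least 28.7-fold), Gem (at least 26.4-fold) and Aff1 (at least 20.6-fold), were unlisted without stress. Gem, a small GTPase, had 31.6 in AS and 73.5 in RC4. In all, 14 of the 142 genes, Hsph1 included, were at 0 in both untreated libraries.

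Genes that fell had low to moderate levels, and 28 of the 67 were at 0 in RC4, of which Nsd1, looked up after its values were seen, had reads there elsewhere in the gene span. Fbxo5, an inhibitor of the anaphase-promoting complex, stood at 144, 80.4, 145 and 4.2 (-4.72 ± 0.68, adjusted p = 0.036). Has2, a hyaluronan synthase, stood at 48.7, 79.0, 33.3 and 4.2 (-3.91 ± 0.61, adjusted p = 0.0452). Skp2, which targets the inhibitor p27 for degradation, stood at 38.3, 65.4, 29.4 and 3.5 (-3.87 ± 0.63, adjusted p = 0.0466). For each of the 3 the RC4 value rests on 5 or 6 reads, where the untreated libraries held 55 to 207. Incenp, of the chromosomal passenger complex, stood at 52.2, 52.5, 85.2 and 5.6 (-3.21 ± 0.44, adjusted p = 0.0348). Ints5, an Integrator subunit, was at 41.1, 42.9, 35.9 and 0, at least 14.7-fold lower. The AS level lay within or close to the untreated range in Ints5 and above it in Incenp. Klf2, Chst12 (-3.1), Exoc8 (-3.08), Mettl13 (-2.9) and Etaa1 (-2.73) complete the 10 largest falls among genes with at least 50 reads in both untreated libraries.

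On the list of cell cycle and replication genes 2 of 45 tested fell and none rose, 29 were below both untreated values against 10 above, and the median was -0.43. Cdc25a, the phosphatase that activates S-phase kinases, stood at 62.6, 58.6, 37.2 and 11.2 (-2.43 ± 0.41, adjusted p = 0.0467). Cyclin E1 (Ccne1) stood at 82.1, 90.6, 73.5 and 18.9 (-2.19 ± 0.34, adjusted p = 0.0444). In both, the RC4 level was the lowest and the AS level was below both untreated levels. Of this list 3 genes were higher and 11 lower at an unadjusted p under 0.05, and DESeq2 called none.

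Of 23 tested myogenic regulators 2 fell and none rose. Myf5, which commits cells to muscle, stood at 32.7, 30.0, 22.1 and 0, at least 10.7-fold lower, and the Notch target Hes1 at 15.3, 19.1, 29 and 0, at least 5.47-fold lower. Myod1 did not pass, with 13.2, 23.8, 23.4 and 39.2 (adjusted p = 0.192). The median was -0.41, or -0.11 with the 5 genes at 0 in a group set to their bounds. For NT4h against NT0h the median of this list was 0.39, beside 0.00 over all genes. Among 38 tested extracellular matrix genes Serpinh1 rose and Col3a1, a fibrillar collagen, fell (216, 266, 325 and 90.3, -1.42 ± 0.24, adjusted p = 0.0493).

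Several lists showed few or no calls. None of 61 tested cytosolic ribosomal protein genes, 48 respiratory chain genes, 29 actin and SRF target genes or 20 cleavage and polyadenylation factors rose or fell, with medians of 0.43, 0.32, 0.15 and 0.05. At an unadjusted p under 0.05 in edgeR, 14 ribosomal protein genes were higher and none lower, with 6 and 0 respiratory chain genes, 6 and 1 actin and SRF targets and 4 and 2 cleavage factors. DESeq2 called 2 ribosomal protein genes and 1 actin or SRF target higher and none of the other lists. Scaling by library totals, which lowers the median gene by more than the last 3 of these values, would put those 3 below 0. Of 34 tested genes of mRNA decay and AU-rich element binding 2 rose, Zfp36 and Btg2, and the median was 0.00. Tia1, a stress granule protein that binds U-rich 3′UTRs, had 26.4, 27.9, 19 and 7.0 (-1.95 ± 0.50, adjusted p = 0.0967). The nuclear RNAs Malat1 (11.8, 0, 4.33 and 11.2) and Neat1 (17.4, 43.6, 10.8 and 83.3) did not pass (adjusted p = 0.864 and 0.435). Of 17 stress-sensing transcription factors, Bach1 and Atf4 rose.

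No gene differed between RC4 and AS at an adjusted p under 0.05 in edgeR, with 780 genes higher and 1020 lower at an unadjusted p under 0.05, and DESeq2 called 139. Both conditions share the untreated libraries, so their levels are only set side by side above. The myotube libraries have their own untreated pair and share with myoblasts only the fit. There 132 genes rose (1.43%) and 39 fell (0.423%). Of the 142 genes that rose in myoblasts, 140 had a positive difference in myotubes, where 46.8% of all tested genes did, and 78 were called. The filter on reads also counted the treated libraries. Genes at 0 in every untreated library, such as Krt16 and Procr, could therefore have no negative difference in myotubes. Of the 67 that fell, 61 had a negative difference in myotubes, against 52.9% of all genes, and 14 were called. Hmox1 went from 24.8 and 18.3 to 4040 in myotubes, a log2 difference of 7.55 beside 7.52 in myoblasts. The test of the difference between the 2 effects called no gene (unadjusted p under 0.05 for 354 and 493 genes in the 2 directions), and DESeq2 called 8. Cdkn1a, with 2.11 in myoblasts and -0.64 in myotubes, was not among those called by edgeR.

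Genes were also grouped by the 3′UTR length of their main PAS, into 5 bins of 8913 genes. The median log2 difference was 0.17 in the shortest bin (2 to 224 nt) and -0.24 in the longest (1725 to 13394 nt), with 0.00, 0.00 and -0.03 between them. For NT4h against NT0h the median was 0.00 in each bin. From the shortest to the longest bin, of 1782 or 1783 genes each, 28, 24, 39, 29 and 18 genes rose. In the same order 9, 12, 13, 11 and 21 fell. Over all tested genes 1.54% rose and 0.726% fell. The difference of medians between these bins was -0.40, and -0.27 without NT0h.

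At the level of isoforms, the share of reads from longer 3′UTRs was lower at 4 h of recovery in more genes than it was higher. Use of a PAS and decay of an isoform cannot be told apart in these reads. Of 1822 genes with more than 5 reads of both isoforms in each of the 3 libraries, 270 were shortened (14.8%) and 14 lengthened (0.768%). A call required Fisher's exact test at p under 0.05 and over 5 percentage points in the same direction against both untreated libraries. Against a single untreated library, RC4 had 417 genes shortened and 28 lengthened with NT0h as the control, and 525 and 105 with NT4h. The like comparison of NT4h with NT0h called 192 genes shortened (10.5%) and 198 lengthened (10.9%), so the untreated libraries differed in both directions by similar counts. Fisher's test covers the counting of reads only. Of the 270 shortened genes 49 also differed between the untreated libraries, and 241 had a smaller difference between them than RC4 had from either. With libraries as the unit, edgeR's test of isoform by condition called 23 genes shortened (1.26%) and none lengthened (300 and 14 at an unadjusted p under 0.05).

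The sequences before the cleavage sites of the genes that carry these results are shown here, since the hexamers AATAAA and ATTAAA (in capitals) are what the cleavage machinery reads. Each window is 30 bases of NCBIM37 (mm9), 5′ to 3′ on the gene's strand, and ends 8 bases before the site. AATAAA lay a median of 22 nt upstream of the sites that hold it.
Aars pPAS: cttttctctgcagaaAATAAAaaggaccat
Aars dPAS: ctcagagtaaaacataaaaactattttatg
Gna13 pPAS: tctctttaaatggcagtttacaacagcagt
Gna13 dPAS: gtaaaaattactgacatttAATAAAcattt
Dnajb1 pPAS: atgttttccacagaatatattacaatcttt
Dnajb1 dPAS: tgcagtgtgacagcATTAAAgactgatgct
Hspa4l pPAS: tgatatgatgtgATTAAAttatagttcctg
Hspa4l dPAS: gtaataatAATAAAtacatattctacctgc
Gins1 pPAS: tactcttataattgaaAATAAAcagtcttt
Gins1 dPAS: ctgacaggaAATAAAagccacatttaccct
Hnrnpk pPAS: ttcaaaatccacatctaAATAAAacttcca
Hnrnpk dPAS: gtgttcctcttgtaaggaaatacagtaatc
The windows lie on chr8:113579432-113579461 and chr8:113581468-113581497 for Aars, chr11:109257864-109257893 and chr11:109262646-109262675 for Gna13, chr8:86134831-86134860 and chr8:86135765-86135794 for Dnajb1, and chr3:40594322-40594351 and chr3:40599988-40600017 for Hspa4l, all on the plus strand. Those of Gins1 lie on chr2:150756966-150756995 and chr2:150759997-150760026 (plus strand) and those of Hnrnpk on chr13:58492607-58492636 and chr13:58492511-58492540 (minus strand). All lie in the 3′UTR or just past it, the dPAS of Dnajb1 and Gins1 beyond the annotated end. The Aars pPAS holds AATAAA and its dPAS neither hexamer, whereas in Gna13 and Dnajb1 only the dPAS holds one.

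Aars, the alanyl-tRNA synthetase and an ATF4 target, was the most shortened gene. Its dPAS share of reads was 40.9% in NT0h, 62.6% in NT4h, 21.0% in AS and 1.84% in RC4 (Wilson 95% interval 1.10 to 3.07%, 759 reads). The RC4 share lay far below the others, while the untreated libraries also differed (Fisher's exact p = 2.68e-06). RED, the log2 ratio of dPAS to pPAS reads in one library minus that in another, was -5.2 against NT0h and -6.47 against NT4h, beside 1.27 between the untreated libraries. The pPAS is at position 113579469 and the dPAS 2036 nt downstream, and the pPAS isoform went from 125 and 49.7 to 522 normalized RPM while the dPAS isoform went from 86.3 and 83.1 to 9.8. edgeR called the isoform shift (adjusted p = 0.00276), but not the change of the whole gene (log2 difference 1.49, adjusted p = 0.0561).

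Gna13, the G protein subunit Gα13, had dPAS shares of 85.0%, 89.6%, 64.9% and 16.7% in NT0h, NT4h, AS and RC4, with an aUTR of 4782 nt (REDs of -4.82 and -5.43). Fem1b, a substrate receptor of a ubiquitin ligase, had 86.6%, 83.0%, 86.2% and 25.8%, with an aUTR of 4210 nt. Its AS share thus lay with the untreated ones, and that of Gna13 lay between. Ttc39b had shares of 87.1%, 87.5%, 58.1% and 39.4% over an aUTR of 6117 nt. Thap2 had 79.6%, 72.9%, 54.0% and 22.2%. The splicing factor gene Luc7l had 64.4%, 70.0%, 50.6% and 16.3%. These, with the taurine transporter Slc6a6 (80.0%, 83.3%, 68.0% and 32.3%) and the transcription factor Sp1 (85.2%, 86.0%, 81.2% and 41.8%), were the 8 most shortened of 217 that met the rule for naming. RC4 had the lowest share in all 8, and its 95% interval overlapped neither untreated one. The 8 were chosen by their RED against both untreated libraries. Their distance from the untreated shares thus follows from the choice and is no separate support. Gene-level differences of these 8 did not pass, the largest being that of Aars. By edgeR's isoform test 6 of the 8 passed, with Luc7l (adjusted p = 0.0535) and Sp1 (adjusted p = 0.0717) as the exceptions.

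Lengthened genes were fewer and their shifts smaller. Gins1, of the GINS replication complex, had dPAS shares of 75.0%, 79.9%, 79.4% and 92.8% (aUTR 3031 nt, REDs of 2.1 and 1.69). Hnrnpk, an RNA-binding protein gene, had 51.7%, 49.4%, 48.8% and 69.6% over an aUTR of only 96 nt. Cyclin D2 (Ccnd2) had 50.5%, 51.3%, 39.8% and 71.8% over 132 nt. In all 3 the RC4 share was the highest of the 4 libraries, which for the untreated ones follows from the choice of genes. Cand1 had 52.5%, 48.8%, 54.3% and 72.7%, and the glucose transporter Slc2a1 had 88.0%, 84.1%, 95.8% and 94.1%, where AS was the highest. edgeR's isoform test passed none of these 5 (adjusted p from 0.0568 for Gins1 to 0.285 for Cand1).

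Genes that the study singles out for their 3′UTRs gave mixed results, and the study named them for different reasons. It examined Nmt1, Timp2, Rpl22, Fam49b, Dnajb1 and Hspa4l in C2C12 cells by RT-qPCR. For Rpl22 and Fam49b it reported only modest shortening by stress. Purb was examined in NIH3T3 cells, and Tmem248 was an example of TIA1 binding in those cells. Dnajb1 had dPAS shares of 84.9%, 84.6%, 81.8% and 64.4% and was shortened, with the pPAS isoform 6.39 and the dPAS isoform 4.77 higher on the log2 scale, so both isoforms were higher (edgeR isoform test, adjusted p = 0.0777). The HSP110 gene Hspa4l (34.0%, 40%, 29.5% and 13.8%, aUTR 5666 nt) and the ribosomal protein gene Rpl22 (36.0%, 32.1%, 27.6% and 20.4%) were shortened. For Nmt1, with 32.8%, 13.5%, 30.4% and 14%, the untreated libraries lay farther apart than RC4 and NT4h did. Timp2 (79.0%, 61.7%, 68.2% and 67.9%) and Fam49b (13.0%, 4.51%, 6.09% and 8.84%) lay between their untreated shares. Purb had dPAS reads of 6, 13, 6 and 0 and could not be tested, and Tmem248 had no pair of sites.

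**Figure D4:**
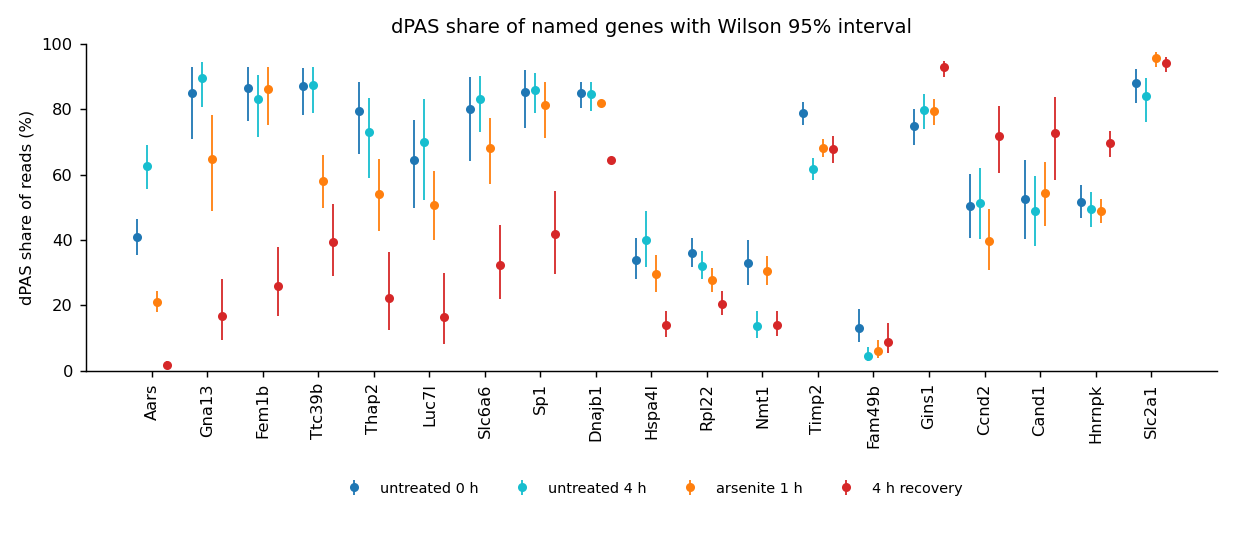
The share of a gene's pPAS and dPAS reads that fall at the dPAS (%), with Wilson 95% intervals for counting error, in the untreated 0 h, untreated 4 h, arsenite 1 h and 4 h recovery library. The recovery share is the lowest of the 4 from Aars to Rpl22 and the highest in Gins1, Ccnd2, Cand1 and Hnrnpk, while Nmt1, Timp2 and Fam49b show untreated libraries that differ.

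Over all 1822 genes the median RED was -0.448, with -0.411 against NT0h, -0.479 against NT4h and 0.0372 between the untreated libraries. RED was under -1 in 23.6% of genes against NT0h and 30.41% against NT4h, and in 11.03% between the untreated libraries. It was over 1 in 2.69%, 6.53% and 11.69%. In the AS library the median RED was -0.154 over 1802 genes. Among the shortened genes 229 had a lower dPAS isoform, 253 a higher pPAS isoform and 212 both, with medians of -0.812 and 0.843 on the log2 scale, beside -0.129 and 0.321 over all pairs.

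RED was lower in genes with a longer aUTR. In 5 bins of equal number, from 25 to 119 nt up to 1598 to 7373 nt, the median RED was -0.22, -0.23, -0.37, -0.59 and -1.03. The share of shortened genes in these bins was 4.11%, 6.59%, 8.52%, 21.15% and 33.7%. Between the untreated libraries the medians lay between 0.002 and 0.0544. In the longest bin the pPAS isoforms had a median difference of 0.469 and the dPAS isoforms of -0.561. The median aUTR was 1431 nt in shortened genes, 128 nt in lengthened genes and 500 nt in all. At the dPAS, AATAAA was present within 40 nt upstream in 70.37% of shortened and 59.66% of all tested genes, and neither hexamer in 10.74% and 21.46%. At the pPAS the shares with AATAAA were 49.63% and 48.02%. Shortened genes had longer aUTRs, and the part of size in the dPAS difference was not tested. In the longest bin, genes with fewer TTTT per 100 nt of aUTR had a median RED of -0.876 and those with more had -1.1, beside -0.138 and 0.106 between the untreated libraries.

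**Figure D5:**
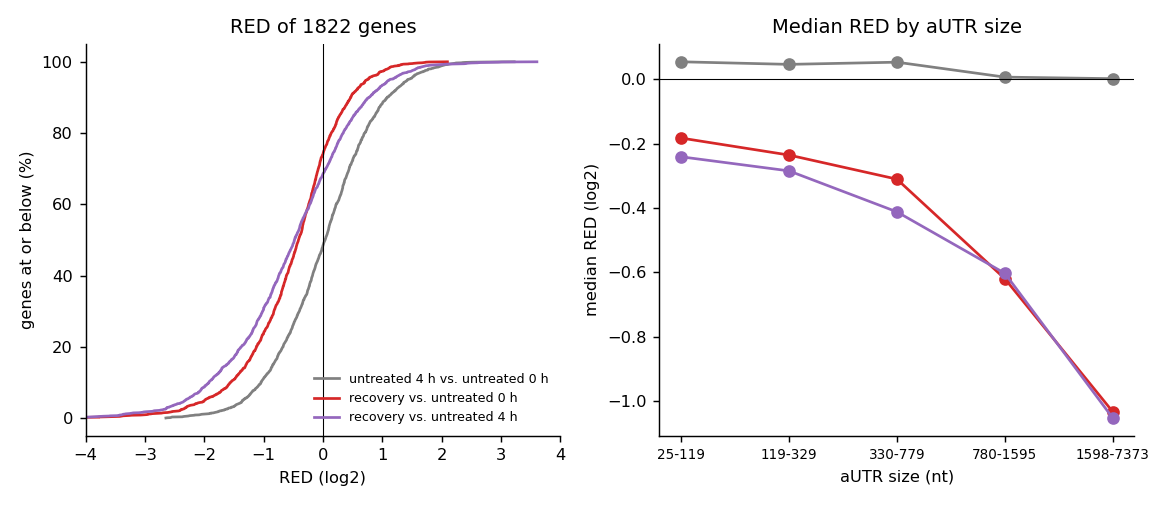
Left, the cumulative share of 1822 genes (%) against RED (log2) for untreated 4 h vs. untreated 0 h (grey), recovery vs. untreated 0 h (red) and recovery vs. untreated 4 h (purple); a few genes lie beyond the axis. Right, the median RED in 5 bins of aUTR size (nt) for the same comparisons: both recovery lines fall from near -0.2 to near -1.0 and the untreated line stays near 0.

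Shortened genes were compared with all tested pairs at the level of the whole gene. The median gene-level difference was 0.13 in shortened genes and 0.09 in all pairs. Of 44 genes that rose and had a testable pair 12 were shortened, and of 3 that fell 2 were, beside 14.8% of all. Within the lists, 4 of 13 tested chaperones were shortened (Chordc1, Dnaja4, Dnajb1 and Hspa4l, list median -0.99), as were Rpl11 and Rpl22 of 16 ribosomal protein genes and none of 5 cleavage and polyadenylation factors. Id2 and Id3, inhibitors of myogenic factors, were shortened among 8 myogenic regulators. In myotubes, 261 of the 270 shortened genes could be measured, and 209 (80.1%) had a RED below 0 against both untreated myotube libraries, compared with 56.7% of 1662 genes. The median RED in myotubes was -0.89 for them and -0.28 for all. Of 13 measurable lengthened genes 6 were above 0 against both, compared with 19.7% of all. The difference in RED between myoblasts and myotubes was not tested.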

How the data were processed

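The authors removed adapters with Cutadapt, aligned 3′READS inserts to mm9 (bowtie2, local alignment), retained well-mapped reads with untemplated Ts, and deposited raw read counts per PAS. Versions of Cutadapt and bowtie2 are not given in the sources used here. The 38 3′READS files held 99725 positions. Positions within 24 nt were joined into 83916 clusters, and 44864 were assigned to 12967 genes of GENCODE M1 on NCBIM37 (last exon, or up to 4000 nt past it; 11860 past the annotated end; 121 ambiguous ones left out).

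Gene sums with at least 10 reads in at least 2 of the 8 C2C12 cytoplasmic libraries (9229 genes, mitochondrial genes left out) were tested with edgeR 4.0.16 (quasi-likelihood test, median-ratio size factors, 6 groups, residual df 2, Benjamini-Hochberg adjusted). Levels are RPM of the scaled library, and SEs come from the fitted difference and its F. A gene at 0 was given a bound of 4 reads per library, the most that 1 unlisted PAS can hold. The pPAS and dPAS were the 2 most abundant 3′UTR PASs of a gene over the 8 libraries, at most 10000 nt apart (5513 pairs), tested with Fisher's exact test (scipy 1.17.1, two-sided). Wilson 95% intervals cover counting error only. Promoters were matched to RefSeq by symbol for 6674 genes.

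edgeR's gene and isoform tests were checked on simulated data, and the other tests were not. Genes were named by rule: up to 4 called members of each list with the largest change, Hsf1, Nfe2l2, Tia1, Malat1 and Neat1, the 10 largest called rises and falls with at least 50 reads in the lowest library of the higher group, the 8 most shortened and 5 most lengthened genes with at least 50 reads of each isoform and a smaller difference between the untreated libraries, and 9 genes the study names. Others were named after their values were seen. The comparison, the lists and the rule were chosen with earlier results of these data known. Alternatives were other size factors (TMM, library total), DESeq2 1.42.0, other filters, PAS assignments and isoform criteria, and leaving out each untreated library. The untreated 0 h and 4 h libraries were numbered 1 and 2 here, since both titles carry the number 1. RNA-seq files, which the authors mapped with STAR, were not used here. A few genes that the rule names are not reported here.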

Additional observations from a re-analysis of the deposited data

How the results depend on the processing

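Of 467 alternative values for the 53 named genes that were called, 421 kept direction and call, 46 kept the direction but not the call, and none reversed. 39 genes never lost their call except without a filter on low counts, in the settings where they were tested. With the 3 myoblast libraries alone some, such as Fos, Hspa1a, Hspa1l and Hsph1, fell below the filter and were not tested. The 209 called genes became 52 without a filter (47 rose, 5 fell), 645 with the 3 myoblast libraries alone (283 and 362) and 1169 to 2019 without 1 untreated library (592 to 1084 and 577 to 935). All 142 and 67 genes were among the latter. Scaling by library totals gave 73 and 141. In number of calls TMM, DESeq2, the gene span and an extension of 1000 nt stayed within 1.5 times. DESeq2 nonetheless shared only 116 of the 142 and 33 of the 67. For RC4 against AS, 0 genes became 139 with DESeq2 and 1376 to 1578 without 1 untreated library. For the difference between myoblasts and myotubes, 0 became 8 and 36 to 394. These alternatives, and those for 3′UTR length and for unlisted isoforms counted as 4 in the median RED, were chosen after seeing the data.

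The 270 shortened genes became 139 at over 20 reads, 535 with untreated reads summed, 441 to 544 without 1 untreated library and 23 with edgeR. The 14 lengthened genes became 7, 70, 30 to 108 and 0 in the same order, and 5 with adjusted Fisher p, 9 at 10 percentage points and 33 with unlisted isoforms counted as 0. The median RED was -0.37 with unlisted isoforms counted as 4, and -0.49 to -0.40 without 1 untreated library. The difference in median RED between the longest and shortest aUTR bins was -0.81, -0.58 in 3 bins and -0.85 to -0.81 without 1 untreated library. That between 3′UTR length bins was -0.40, and -0.36 to -0.27. Unless shown by the construction of the alternative, the cause was not tested. No paired analysis was possible because the title of every C2C12 cytoplasmic library carries the number 1. Over the whole gene span the log2 difference of Hsph1 was 4.96. Depth limits genes near 5 reads, and the single RC4 library limits every comparison.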
